A study of Mus musculus with 8 samples.

Results

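Arg1, Nos2, Ass1, Slc7a2, Chil3 and Retnla, which handle arginine in myeloid cells or mark alternatively activated macrophages, were followed in the immune infiltrate of beta cell grafts. These 6 genes were taken by name from the 32285 genes of the count table by a rule that sets no threshold on their values, and all 6 were detected. NIT-1 is a beta cell line from a NOD mouse tumor, and NIT-1 cells with intact Rnls (WT) or with a mutation in Rnls (Rnls mut) were placed under the skin of opposite flanks of the same NOD.scid recipients. Every recipient then received splenocytes of recently diabetic NOD mice, and grafts were taken at day 10 or day 17 after that transfer. The mutation sat in the graft cells and not in the sorted immune cells, so all immune cells compared here carry the same intact Rnls. NOD.scid mice lack T and B cells but keep their own macrophages, and host and transferred myeloid cells cannot be told apart in these data. The ages of the mice are not given in the sources used here.

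CD45+ cells of 4 grafts per genotype and day were marked with hashtag antibodies, a graft to a hashtag, and run as 4 droplet libraries of 3′ transcript ends, so that each library held 1 genotype at 1 day. A difference between genotypes or days and a difference between libraries therefore cannot be told apart. The 22441 cells of the 16 grafts carried a median of 3520 UMIs, where a UMI marks a single captured transcript molecule. The totals per graft ran from 1742746 to 9729233 UMIs, and WT day 17 graft 3 stood apart with a median of 7822.5 UMIs per cell. Of the cells, 7179 were annotated as macrophages and 2345 as monocytes by the authors. Levels are given as UMIs per 1000000 UMIs (UPM) after pooling all cells of a type within a graft, and they are compared between samples and cell types but not between genes. Intervals were not drawn from cells, since cells of a graft are not replicates.

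The annotation was checked against marker genes. The macrophages carried C1qa at 2072 UPM and Mertk at 82.8 UPM, against 109 UPM and 11.3 UPM in monocytes, and the monocytes carried Ly6c2 at 532 UPM against 164 UPM in macrophages. Transcripts of other cells were rare in the macrophages, with Cd3e at 1.67 UPM, the eosinophil gene Siglecf at 0.33 UPM and Ins1 at 0. The labels call the source a beta cell, whereas the sorted cells were immune cells with beta cell transcripts at or near 0.

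Arginine enters macrophages through cationic amino acid transporters, of which Slc7a2 is the one induced on activation. Nos2 encodes the inducible nitric oxide synthase, which turns arginine into nitric oxide and citrulline and is a hallmark of macrophages exposed to interferon gamma. Ass1 encodes argininosuccinate synthase, which starts the return of citrulline to arginine. Arg1 encodes arginase, which competes for the same arginine and feeds ornithine and polyamine synthesis. Chil3 (Ym1, a chitinase-like protein) and Retnla (RELMa or FIZZ1, a secreted resistin-like protein) have no enzymatic part in arginine use, and together with Arg1 they are the classical mouse readouts of IL-4 and IL-13 signaling through STAT6.

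In the GENCODE annotation of GRCm38, Ass1 (ENSMUSG00000076441) lies on the plus strand at chr2:31470207-31520672 and Chil3 (ENSMUSG00000040809) on the minus strand at chr3:106147554-106167564. Slc7a2 (ENSMUSG00000031596) lies on the plus strand at chr8:40862396-40922308 and Arg1 (ENSMUSG00000019987) on the minus strand at chr10:24915221-24927484. Nos2 (ENSMUSG00000020826) lies on the plus strand at chr11:78920787-78960254 and Retnla (ENSMUSG00000061100) on the plus strand at chr16:48842551-48844461. The 6 genes thus sit on 6 chromosomes.

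RefSeq promoter sequences (build GRCm38.p6, 250 bases before to 50 bases after the annotated start, 5′ to 3′ on the strand of the gene) were found for 3 of the 6 genes. For Ass1 and Retnla this RefSeq start lay downstream of the GENCODE gene start given above. All distances below are from the RefSeq start. They are shown because Ass1 fell and Retnla rose between the days below, while Chil3 fell in macrophages and was highest in monocytes. Capitals mark matches to the letter patterns searched on both strands, and the windows are chr2:31470020-31470319 (plus) for Ass1, chr3:106167515-106167814 (minus) for Chil3 and chr16:48842359-48842658 (plus) for Retnla.
Ass1: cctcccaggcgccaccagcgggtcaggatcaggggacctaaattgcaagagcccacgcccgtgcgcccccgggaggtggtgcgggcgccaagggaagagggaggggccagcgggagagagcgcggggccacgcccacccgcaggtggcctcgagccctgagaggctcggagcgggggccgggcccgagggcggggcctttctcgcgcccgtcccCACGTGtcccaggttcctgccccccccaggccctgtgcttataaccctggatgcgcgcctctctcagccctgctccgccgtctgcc
Chil3: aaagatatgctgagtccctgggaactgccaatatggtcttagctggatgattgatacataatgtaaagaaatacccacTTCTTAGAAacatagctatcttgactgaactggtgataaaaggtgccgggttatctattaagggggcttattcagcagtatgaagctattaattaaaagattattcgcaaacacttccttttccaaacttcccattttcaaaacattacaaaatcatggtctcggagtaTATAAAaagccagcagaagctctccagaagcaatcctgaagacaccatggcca
Retnla: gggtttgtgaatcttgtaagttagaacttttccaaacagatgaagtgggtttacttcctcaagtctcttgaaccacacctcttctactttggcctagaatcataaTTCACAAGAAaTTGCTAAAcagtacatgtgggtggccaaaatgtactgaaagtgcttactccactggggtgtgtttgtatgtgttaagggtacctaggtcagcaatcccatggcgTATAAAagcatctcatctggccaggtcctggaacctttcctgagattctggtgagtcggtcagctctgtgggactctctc
The Retnla window held a STAT6 element (TTCNNNNGAA) as TTCACAAGAA, starting 145 bases before the start. A C/EBP element (TTGCNNAA) followed as TTGCTAAA at 134 bases before the start, with a TATA box (TATAAA) at 30 bases. The Chil3 window held an interferon gamma activated site (TTCNNNGAA) as TTCTTAGAA at 172 bases and TATAAA across the annotated start. The Ass1 window held the hypoxia response core (ACGTG), which matched on both strands within CACGTG, from 36 bases before the start. Of 32851 promoter windows of the same length, 6.95% held the STAT6 pattern, 8.30% the interferon gamma activated site, 10.8% the C/EBP pattern, 19.6% ACGTG and 13.6% TATAAA. A match is a run of letters and does not show that a factor binds there.

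Across cell types, the 6 genes were largely myeloid, and Ass1 was the exception. Macrophages held 95.5% of all 5031 Arg1 UMIs, 90.2% of 3705 Nos2 UMIs, 80.9% of 4466 Slc7a2 UMIs and 99.3% of 96536 Retnla UMIs. Monocytes held most of Chil3, with 75.9% of its 1172 UMIs against 23.0% in macrophages. Ass1 was spread more widely, with 44.5% of its 14737 UMIs in macrophages and 27.8% in monocytes. These levels describe types that were themselves drawn from expression, and no test was made between them.

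With all grafts summed, Arg1 stood at 122 UPM in macrophages, 13.9 UPM in monocytes and 14.9 UPM in ILC-1, the last from 11 UMIs. Nos2 stood at 84.8 UPM in macrophages and 29.0 UPM in monocytes, with no other type above 3.50 UPM. Slc7a2 stood at 91.6 UPM in macrophages and 66.8 UPM in monocytes, and DC followed at 6.31 UPM. Arg1, Nos2 and Slc7a2 were thus near the floor of the assay in T and NK cells. Per graft, macrophage Arg1 ran from 1.16 to 275.9 UPM and monocyte Arg1 from 0 to 87.8 UPM, so that the grafts of the types overlapped.

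Ass1 was highest in monocytes at 350 UPM, followed by Tregs and DC at 209 UPM each, macrophages at 167 UPM, CD4 T cells at 61.0 UPM and CD8 T cells at 33.5 UPM. In NK cells and ILC-1 it stood at 4.54 and 4.07 UPM. Treg Ass1 was therefore above that of other T cells, at 208 ± 34.8 UPM in Rnls mut and 272 ± 26.9 UPM in WT grafts of day 10 (mean ± SD, n = 4). DC Ass1 was 280 ± 43.7 UPM in Rnls mut and 227 ± 47.7 UPM in WT grafts at day 10, and 95.1 ± 39.4 and 134 ± 62.8 UPM at day 17.

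Chil3 stood at 76.2 UPM in monocytes and 6.85 UPM in macrophages. No Chil3 UMI was found in DC, NK cells, ILC-1 or Tregs. Granulocytes, which are known to carry Chil3, stood above macrophages at 14.02 UPM, though from only 8 UMIs. Retnla stood at 2431 UPM in macrophages against 14.5 UPM in monocytes and 2.20 to 38.5 UPM in the other types shown. The Retnla level in T and NK cells, which should lack the transcript, moved with the level in the whole library: 0.688, 6.68, 18.3 and 52.8 UPM where all cells stood at 88.9, 165, 1962 and 2601 UPM (Rnls mut day 10, WT day 10, WT day 17, Rnls mut day 17). Free RNA in droplets can give such a background, and its part here was not tested. In the same order of libraries, monocytes stood at 15.5, 10.7, 17.1 and 56.3 UPM. They lay close to the T and NK cell level at day 17 and far above it in the Rnls mut library of day 10. In the WT library of day 10 they stood at 10.7 against 6.68 UPM, a smaller gap.

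**Figure D1:**
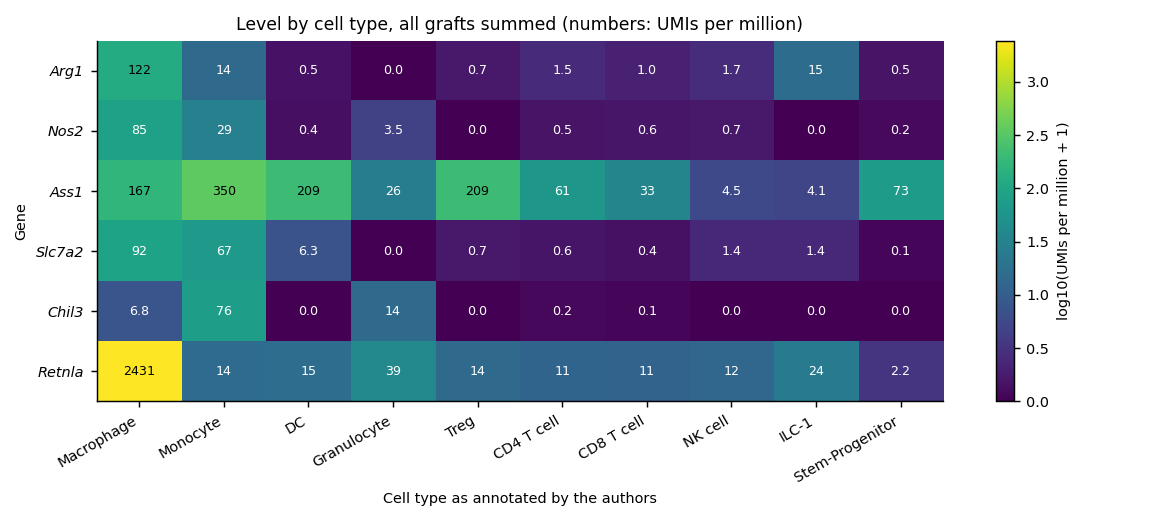
Level of each gene (rows) in each cell type annotated by the authors (columns), with all grafts summed. Printed numbers are UPM and the color is log10 of the level plus 1. Arg1, Nos2, Slc7a2 and Retnla peak in macrophages, Ass1 and Chil3 in monocytes.

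The share of cells with a UMI gave the same order of macrophages, monocytes and CD8 T cells. Arg1 was seen in 11.6% of macrophages, 1.75% of monocytes and 0.29% of CD8 T cells, at median depths of 4719, 4530 and 2555 UMIs per cell. After each cell was thinned to 1000 UMIs, the shares for Arg1 were 6.06%, 0.61% and 0.11%. Retnla was seen in 23.4% of macrophages, 2.94% of monocytes and 2.87% of CD8 T cells (thinned 16.0%, 1.01% and 1.25%). Thinning thus put monocytes below CD8 T cells for Retnla. By library, the monocyte and CD8 T cell shares for Retnla were 1.53% and 0.153% in Rnls mut day 10, 2.29% and 1.92% in WT day 10, 8.33% and 8.38% in WT day 17, and 14.41% and 12.96% in Rnls mut day 17. Monocytes thus lay near the T cell background in 3 libraries and above it in Rnls mut day 10. In WT day 10 the thinned shares were 0.67% in monocytes and 0.89% in CD8 T cells. Nos2 was seen in 13.1% of macrophages and 6.52% of monocytes against 0.17% of CD8 T cells. Slc7a2 was seen in 20.4% and 16.9% against 0.12%, and Chil3 in 2.23% and 17.0% against 0.03%. Ass1 was seen in 31.8% of macrophages, 66.3% of monocytes and 8.35% of CD8 T cells.

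Within macrophages the transcripts sat in few cells. The 135 cells richest in Retnla (1.88% of macrophages) held 50% of its macrophage UMIs, and a single cell held up to 1284. For Arg1, 108 cells (1.50%) held 50% of the UMIs, with up to 126 in a cell. For Ass1, 451 cells held 50%.

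The authors' clusters separated Retnla from Nos2 among the macrophages. Cluster 10, whose leading genes were Retnla, Fcrls and Ear2, held 93.5% of all Retnla UMIs at 17357 UPM, and 99.3% of its 764 cells had a Retnla UMI. The next highest macrophage cluster for Retnla was cluster 13, led by Hspb1, Ccl4 and Ccl12, at 766 UPM. Cluster 4, led by Gm15056, Inhba, Ccl5 and Nos2, held 69.8% of the Nos2 UMIs at 241 UPM, against 9.81 UPM in cluster 10. Since both genes helped to define these clusters, the contrast describes them and is no test.

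Arg1 did not follow Retnla across the clusters. Its highest level, 381 UPM and 38.1% of its UMIs, was in cluster 12, which was led by Wfdc21, Igkc, Lyz1, Fn1 and Arg1. The Nos2-rich cluster 4 came next for Arg1 at 141 UPM and 30.0% of UMIs, then cluster 5 at 110 UPM and cluster 2 at 71.9 UPM. The Retnla-rich cluster 10 carried Arg1 at 11.7 UPM, lower than every other macrophage cluster except cluster 13 at 3.77 UPM. Most of the cluster 12 value came from a single graft, WT day 17 graft 3, with 1476 Arg1 UMIs in 207 cluster 12 cells (644 UPM). The other WT day 17 grafts held 6, 1 and 23 cluster 12 cells at 0, 0 and 149.5 UPM, and the Rnls mut grafts of day 17 stood at 135.9, 48.8, 377.8 and 195.4 UPM. Without WT day 17 graft 3, an alternative chosen after seeing the data, Arg1 was 160 UPM in cluster 12, 143 UPM in cluster 4 and 4.40 UPM in cluster 10.

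Ass1 and Slc7a2 were highest in cluster 4, as Nos2 was. Ass1 stood at 443 UPM in cluster 4, 360 UPM in monocyte cluster 1 and 336 UPM in DC cluster 17. Slc7a2 stood at 189 UPM in cluster 4, 113 UPM in cluster 12, 90.0 UPM in cluster 10 and 77.1 UPM in cluster 1. Chil3 stood at 87.7 UPM in monocyte cluster 1, led by Ifi205, Slfn1, Plac8 and Ly6c2, and at 6.62 UPM in monocyte cluster 14, led by Adgre4, Ace and Cd300e. Among macrophage clusters Chil3 reached 15.1 UPM in cluster 4 and 13.8 UPM in cluster 5.

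**Figure D2:**
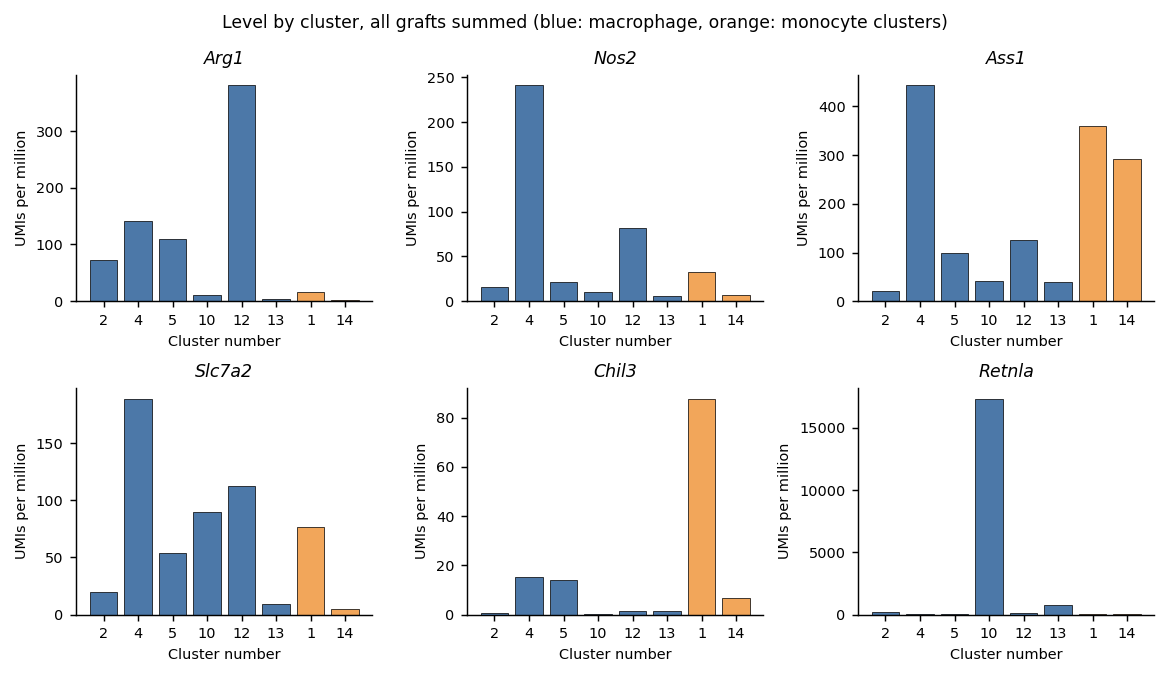
Level of each gene in UPM (vertical axes, linear from 0, each with its own range) in the 6 macrophage clusters (blue) and the 2 monocyte clusters (orange), with all grafts summed. Nos2, Ass1 and Slc7a2 are highest in cluster 4, Arg1 in cluster 12 (381, or 160 without WT day 17 graft 3), Chil3 in cluster 1 and Retnla in cluster 10.

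Within cluster 4, transcripts of the competing enzymes were found in the same cells. Of 230 cells with an Arg1 UMI, 126 (54.8%) also had a Nos2 UMI, against 577 of 1505 (38.3%) without Arg1, at median depths of 5097 and 5909 UMIs. With cells thinned to 1000 UMIs the shares were 26.7% and 16.0%, and the share was higher among Arg1 cells in 6 of the 7 grafts with 10 cells of each kind. Slc7a2 was seen in 57.0% of 703 cells with Nos2 and in 32.8% of 1032 without it (thinned 21.1% and 9.69%), and the share was higher in 12 of 12 grafts. Ass1 showed no such difference, at 31.6% and 32.1% after thinning, with a higher share in 5 of 12 grafts. These shares describe cells of shared libraries, and they were not tested.

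The levels in macrophages changed strongly between the days. In the test of UMIs summed per graft (quasi-likelihood F test of edgeR, p adjusted after Benjamini and Hochberg over 9331 genes, threshold 0.05), 4 of the 6 genes were lower and 1 was higher at day 17 than at day 10. The background was broad: 50.9% of all genes tested passed in this comparison, 25.6% higher and 25.3% lower. The direction of each gene is therefore given with its size and its grafts.

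Nos2 in macrophages was 254.6, 138.5, 168.7 and 214.5 UPM in the Rnls mut grafts of day 10 and 164.6, 170.3, 96.4 and 52.1 UPM in the WT grafts of day 10. The day 17 values were 7.18, 30.1, 27.9 and 11.9 UPM in Rnls mut and 34.9, 2.31, 94.5 and 12.6 UPM in WT grafts. All but 1 of the day 17 grafts, WT graft 3, lay below every day 10 graft. Nos2 fell 5.92-fold (log2 fold change -2.56, SE 0.41, edgeR adjusted p = 6.3e-05).

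Ass1 in macrophages was 361.8, 277.5, 386.3 and 564.3 UPM in Rnls mut and 260.5, 357.8, 316.5 and 249.4 UPM in WT grafts at day 10. At day 17 the values were 62.0, 41.6, 76.6 and 32.4 UPM in Rnls mut and 127.0, 42.8, 98.4 and 71.1 UPM in WT grafts. The days did not overlap, with 127.0 UPM as the highest value of day 17 and 249.4 UPM as the lowest of day 10. Ass1 fell 5.55-fold (log2 fold change -2.47, SE 0.20, edgeR adjusted p = 1.0e-07).

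Slc7a2, the transporter, was 195.7, 110.7, 186.1 and 197.8 UPM in Rnls mut and 132.7, 134.7, 137.3 and 70.5 UPM in WT grafts at day 10. By day 17 the values were 80.2, 49.6, 53.7 and 17.1 UPM in Rnls mut and 38.5, 47.4, 80.3 and 45.3 UPM in WT grafts. Only WT graft 4 of day 10 lay within the day 17 range. Slc7a2 fell 2.97-fold (log2 fold change -1.57, SE 0.22, edgeR adjusted p = 2.3e-05).

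Retnla moved the other way. It was 103.5, 337.3, 1070 and 649.5 UPM in Rnls mut and 897.5, 1006, 368.6 and 367.8 UPM in WT grafts at day 10. At day 17 it was 2510, 6699, 1757 and 6036 UPM in Rnls mut and 4110, 11135, 1524 and 4973 UPM in WT grafts. Every day 17 graft exceeded every day 10 graft. Retnla rose 7.34-fold (log2 fold change 2.88, SE 0.47, edgeR adjusted p = 8.9e-05), which placed it 48th of 9331 genes by the size of its change in either direction.

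Chil3, the other alternative activation marker that is not an arginine enzyme, did not rise with Retnla. In macrophages it was 15.6 ± 2.94 UPM in Rnls mut and 8.32 ± 2.98 UPM in WT grafts at day 10, and 2.93 ± 2.49 and 7.99 ± 5.06 UPM at day 17 (mean ± SD, n = 4). The Rnls mut grafts of the days did not overlap, while the WT grafts overlapped, with day 17 values of 6.77, 6.93, 3.13 and 15.1 UPM. Over both genotypes Chil3 fell 2.55-fold (log2 fold change -1.35, SE 0.35, edgeR adjusted p = 0.0042). The summed level of 7 monocyte markers in the macrophages also went down, from 1667 ± 323 and 1499 ± 238 UPM at day 10 to 683 ± 219 and 953 ± 435 UPM at day 17 (Rnls mut and WT, mean ± SD, n = 4), and its part in the change of Chil3 was not tested.

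Arg1 did not pass the test between days. Its level was 226.6, 90.8, 216.4 and 110.7 UPM in Rnls mut and 114.7, 35.1, 9.52 and 59.2 UPM in WT grafts at day 10. The grafts of day 17 had 90.3, 38.1, 142.3 and 24.7 UPM in Rnls mut and 2.08, 1.16, 275.9 and 39.7 UPM in WT grafts. WT day 17 graft 3, the deeply read graft, held 2114 Arg1 UMIs, 44.0% of all macrophage Arg1, and reached the highest level of the 16 grafts. The log2 fold change was -0.36 (SE 0.62, edgeR adjusted p = 0.652), and without that graft it was -1.61 (adjusted p = 0.0196).

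**Figure D3:**
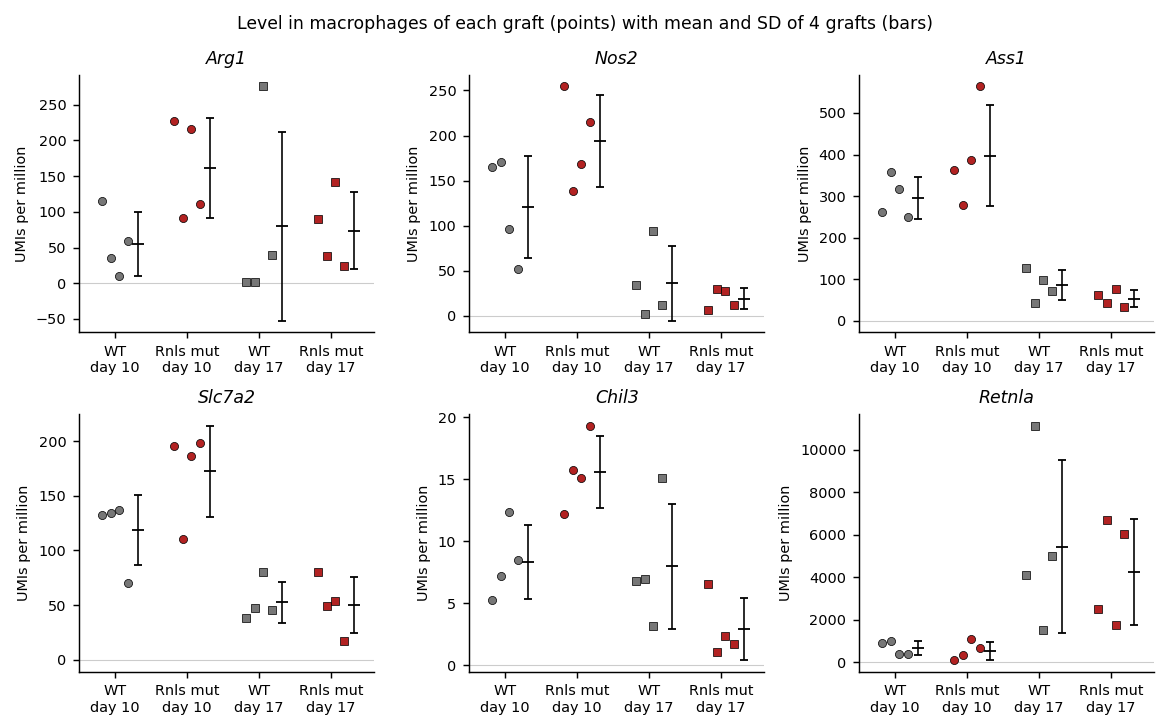
Level of each gene in the macrophages of each graft, in UPM on linear axes. Points are grafts (gray WT, red Rnls mut; circles day 10, squares day 17), and bars give the mean and SD of 4 grafts. Retnla is at least 1524 in all day 17 grafts and at most 1070 at day 10, Nos2, Ass1 and Slc7a2 are lower at day 17, and a single WT day 17 graft carries Arg1 at 275.9.

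The summed level of 8 macrophage markers moved with the day as well, from 12807 ± 3144 and 15524 ± 1540 UPM at day 10 to 22582 ± 2525 and 21549 ± 3991 UPM at day 17 (Rnls mut and WT, mean ± SD, n = 4), and its part in the changes above was not tested. The mix of macrophage clusters changed along with these levels. Cluster 4 made up 67.9 ± 13.8% of macrophages in Rnls mut and 51.5 ± 13.8% in WT grafts at day 10, and 4.89 ± 2.60% and 7.31 ± 6.43% at day 17 (mean ± SD, n = 4). Cluster 10 made up 2.08 ± 2.65% and 2.54 ± 0.91% at day 10, and 15.7 ± 7.77% and 26.5 ± 19.8% at day 17 (Rnls mut and WT). These clusters were drawn with Nos2 and Retnla among their genes, so the shares and the levels are not independent.

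Inside the clusters the day difference was smaller for Nos2 and Retnla. Within cluster 4, Nos2 ran from 260 to 299 UPM in Rnls mut and from 109 to 256 UPM in WT grafts at day 10. At day 17, grafts with at least 10 such cells ran from 79.1 to 233 UPM in 3 Rnls mut and from 141 to 273 UPM in 2 WT grafts. The days overlapped in WT grafts but not in Rnls mut grafts. Outside cluster 4, Nos2 was 49.3 ± 34.9 UPM in Rnls mut and 17.6 ± 13.7 UPM in WT grafts at day 10, and 7.99 ± 2.98 and 21.2 ± 35.7 UPM at day 17 (mean ± SD, n = 4).

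Within cluster 10, Retnla stood at 12946 UPM from 12 Rnls mut cells and 14872 UPM from 31 WT cells at day 10. At day 17 it ran from 14683 to 24118 UPM in Rnls mut and from 12740 to 18271 UPM in WT grafts. The only day 10 graft with at least 10 cluster 10 cells, a WT graft at 15466 UPM, lay inside the day 17 range. Outside cluster 10, Retnla was 88.5 ± 64.6 UPM in Rnls mut and 177 ± 95.3 UPM in WT grafts at day 10, and 156 ± 50.9 and 307 ± 319 UPM at day 17, and the days overlapped (mean ± SD, n = 4). The more than 7-fold rise over all macrophages thus accompanied a larger share of cluster 10 cells.

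Ass1 was lower at day 17 inside cluster 4 as well. It ran from 399 to 794 UPM in Rnls mut and from 392 to 556 UPM in WT grafts at day 10, against 177 to 302 UPM in 3 Rnls mut and 264 to 385 UPM in 2 WT grafts at day 17. The days did not overlap within this cluster. In cluster 5, Ass1 was 260 ± 65.5 and 242 ± 81.8 UPM at day 10 and 70.6 ± 24.9 and 113 ± 75.6 UPM at day 17 (Rnls mut and WT, mean ± SD, n = 4). The days did not overlap there in Rnls mut grafts and overlapped in WT grafts. Slc7a2 in cluster 5 was 221 ± 43.1 and 178 ± 86.5 UPM at day 10 against 42.5 ± 6.71 and 15.8 ± 19.1 UPM at day 17, with no overlap between the days. In cluster 4, where Slc7a2 was highest, the days overlapped: it ran from 184 to 265 UPM in Rnls mut and from 134.8 to 248.6 UPM in WT grafts at day 10, against 115 to 187 UPM in 3 Rnls mut grafts and 116 and 155 UPM in 2 WT grafts at day 17. Over all macrophages outside cluster 4, Slc7a2 was 88.6 ± 71.6 and 43.1 ± 12.4 UPM at day 10 and 44.9 ± 24.3 and 44.1 ± 23.3 UPM at day 17 (Rnls mut and WT, mean ± SD, n = 4), again with overlap.

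**Figure D4:**
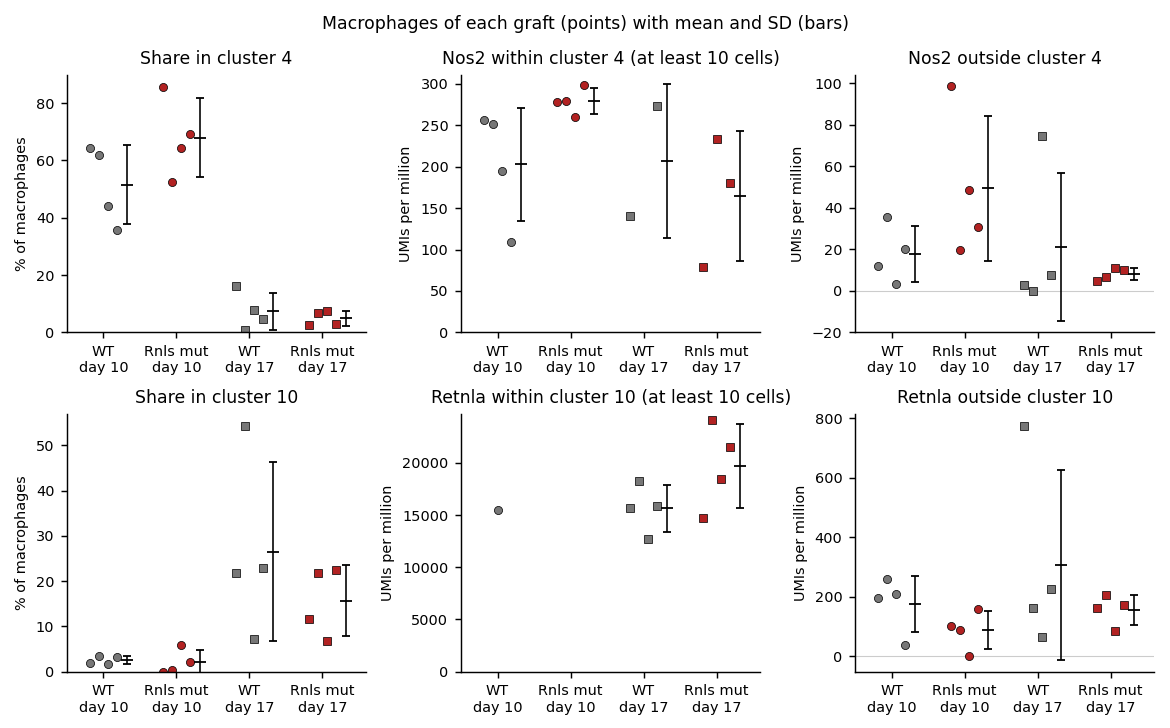
Macrophages of each graft (gray WT, red Rnls mut; circles day 10, squares day 17), with mean and SD as bars. The left panels give the share of macrophages in cluster 4 (top) and cluster 10 (bottom) in percent, the middle panels the level inside that cluster for grafts with at least 10 such cells, and the right panels the level outside it, in UPM. The shares move apart between the days. Retnla inside cluster 10 lies between 12740 and 24118 in the day 17 grafts and at 15466 in the only day 10 graft shown.

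Between genotypes, none of the 6 genes passed the test in macrophages at either day. At day 10, 3 of 9331 genes (0.0322%) passed over the whole table, with 659 at an unadjusted p under 0.05 and 16 past the adjusted threshold by DESeq2. At day 17, 0 genes (0%) passed by edgeR, with 573 at an unadjusted p under 0.05 and 6 by DESeq2. A miss at these sample sizes does not show that the genotypes were alike.

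At day 10 the fitted difference pointed to higher levels in Rnls mut grafts for 5 of the 6 genes. Arg1 was 161 ± 70.3 UPM in Rnls mut against 54.6 ± 44.9 UPM in WT grafts (mean ± SD, n = 4), and 2 of the 4 Rnls mut grafts exceeded every WT graft. The log2 fold change of Arg1 was 1.50 (SE 0.90, edgeR adjusted p = 0.775). Within cluster 4, the main macrophage cluster of day 10, Arg1 ran from 132 to 381 UPM in Rnls mut and from 9.21 to 160 UPM in WT grafts.

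Chil3 at day 10 was 12.2, 15.7, 15.1 and 19.3 UPM in Rnls mut and 5.25, 7.23, 12.3 and 8.46 UPM in WT grafts. The groups overlapped by a single pair of values near 12 UPM, and the log2 fold change was 0.88 (SE 0.47, edgeR unadjusted p = 0.078, adjusted p = 0.737). For Nos2, 194 ± 51.0 UPM in Rnls mut stood against 121 ± 56.8 UPM in WT grafts (mean ± SD, n = 4), with a log2 fold change of 0.65 (SE 0.53). Ass1 differed by 0.39 (SE 0.26), Slc7a2 by 0.50 (SE 0.31) and Retnla by -0.34 (SE 0.63) on the log2 scale, and the adjusted p of the 6 genes ran from 0.737 to 0.951.

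At day 17 the fitted differences were below 0 for all 6 genes. Ass1 was 53.2 ± 19.9 UPM in Rnls mut and 84.8 ± 36.2 UPM in WT grafts (mean ± SD, n = 4). Its log2 fold change was -0.67 (SE 0.28, edgeR unadjusted p = 0.0292, adjusted p = 0.790). Nos2 and Chil3 both stood at -1.08 (SE 0.59 and 0.53), and the values for Slc7a2, Arg1 and Retnla were -0.049, -0.22 and -0.33. The Arg1 value depended on WT graft 3, without which it was 2.28 (adjusted p = 0.451), and Nos2 without that graft was 0.07.

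The change of the genotype difference from day 10 to day 17 was tested directly. It passed for 3 of 9331 genes (0.0322%), with 873 at an unadjusted p under 0.05 and 43 by DESeq2, and for none of the 6. Chil3 came nearest, at a log2 difference of -1.96 (edgeR unadjusted p = 0.0130, adjusted p = 0.427), ahead of Ass1 at -1.06 (unadjusted p = 0.0137, adjusted p = 0.427). Nos2 stood at -1.73 (unadjusted p = 0.0435, adjusted p = 0.506), and Arg1 at -1.73 (unadjusted p = 0.179), which became 0.79 without WT day 17 graft 3.

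**Figure D5:**
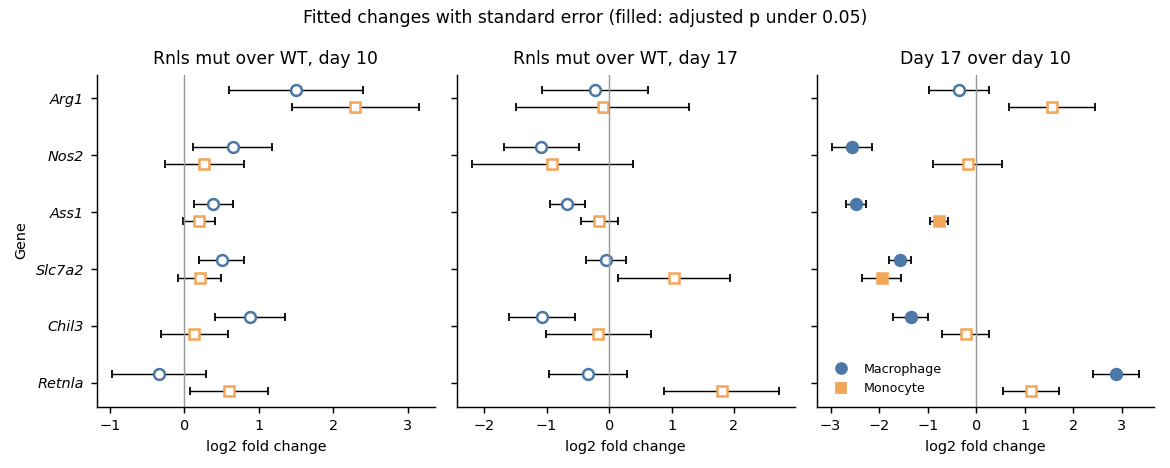
Fitted log2 fold changes with standard errors for each gene in macrophages (blue circles) and monocytes (orange squares), for Rnls mut over WT at day 10, at day 17, and for day 17 over day 10. Filled symbols passed an adjusted p of 0.05. The 7 filled symbols are all in the comparison of days, 5 in macrophages and 2 in monocytes.

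Monocytes gave fewer cells, and WT day 17 graft 2 with 7 monocytes was left out of the fit, which held 15 grafts. Between days, 2 of the 6 genes were lower, against 14.4% of 8092 genes passing in either direction (6.31% higher, 8.11% lower). Ass1 in monocytes was 363.0, 430.8, 364.8 and 419.7 UPM in Rnls mut and 310.7, 391.1, 346.9 and 302.4 UPM in WT grafts at day 10. At day 17 it was 158.0, 252.8, 292.8 and 219.1 UPM in Rnls mut and 252.5, 326.2 and 89.4 UPM in WT grafts. Of the 7 day 17 grafts, 6 lay below every day 10 graft. Ass1 fell 1.71-fold (log2 fold change -0.77, SE 0.18, edgeR adjusted p = 0.0074).

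Slc7a2 in monocytes was 60.8, 93.4, 60.6 and 95.6 UPM in Rnls mut and 48.0, 49.9, 108.6 and 58.2 UPM in WT grafts at day 10. The day 17 grafts gave 15.8, 9.72, 39.0 and 97.4 UPM in Rnls mut and 4.81, 32.2 and 0 UPM in WT grafts. Only Rnls mut graft 4 of day 17 reached the day 10 range. Slc7a2 fell 3.86-fold (log2 fold change -1.95, SE 0.41, edgeR adjusted p = 0.0035). The other 4 genes did not pass, with log2 fold changes of 1.55 for Arg1, -0.18 for Nos2, -0.22 for Chil3 and 1.13 for Retnla, where monocytes lay near the T and NK cell background in the day 17 libraries and above it in Rnls mut day 10.

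Genotype comparisons in monocytes gave no call, for the 6 genes or for any other at day 10 (0%, with 199 of 8092 genes at an unadjusted p under 0.05 and 3 by DESeq2). Arg1 in monocytes at day 10 was 11.0, 4.96, 67.9 and 7.96 UPM in Rnls mut and 13.7, 5.38, 0 and 1.79 UPM in WT grafts. Most of this lay in Rnls mut graft 3, and the other 7 grafts overlapped. The log2 fold change was 2.30 (SE 0.86, edgeR unadjusted p = 0.0141, adjusted p = 0.99998), but in the fit with no filter on low counts the adjusted p was 2.0e-06. At day 17 (0%, with 410 genes at an unadjusted p under 0.05 and 0 by DESeq2) the 6 genes ranged from -0.91 to 1.80 on the log2 scale. For the change between days in the genotype difference (0%, with 408 genes at an unadjusted p under 0.05 and 7 by DESeq2) the adjusted p of the 6 genes ran from 0.988 to 0.999.

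Other genes of these pathways were counted in lists. In macrophages between days, 7 of 17 tested genes of the arginine and polyamine pathway (25 listed) were lower and 0 higher, with a median log2 fold change of -0.19 against 0.02 for all genes tested. Over all 9331 genes 25.6% were higher and 25.3% lower, 50.9% in either direction. Of this list 41.2% passed, all of them lower. That share was below the share of all genes in either direction and above their share of lower genes, and the list was not tested as a set. Among the 7 were Odc1 (-1.26), which makes putrescine from ornithine, Slc3a2 (-0.64), the heavy chain of amino acid exchangers, and Gch1 (-0.49), which starts synthesis of the cofactor of nitric oxide synthase. Of the 3 near relatives tested (11 listed), mitochondrial arginase Arg2 (-1.02) and the chitinase-like Chil1 (-1.53) were lower, and the constitutive arginine transporter Slc7a1 stood at 0.03 and did not pass.

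Of 19 tested genes induced by interferon gamma or tied to classical activation (20 listed), 15 were lower at day 17 and 0 higher, with a median of -1.21. Cxcl10 (-2.51), a chemokine for T cells, Socs1 (-1.96), an inhibitor of cytokine signaling, and Cd40 (-1.21), a costimulatory receptor, were among those that fell, as Nos2 did. Of 23 other alternative activation genes tested (24 listed), 9 were higher and 4 lower, with a median of 0.24. The mannose receptor Mrc1 rose (2.01), while Ccl17 (-5.08), a chemokine, and the transglutaminase Tgm2 (-1.31) fell. Of 13 upstream cytokines and regulators tested (18 listed), 4 were higher and 5 lower, with the interferon gamma receptor chain Ifngr1 (0.74) rising and Hif1a (-0.99) and the nuclear receptor Nr1h3 (-1.12) falling. The background for each list of this paragraph was 25.6% higher and 25.3% lower over all 9331 genes tested.

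In monocytes between days the same lists gave 1 higher and 4 lower of 17 for the arginine and polyamine pathway (median -0.26), with Odc1 at -2.17, where 6.31% of all genes tested were higher and 8.11% lower. Alternative activation genes gave 7 higher and 1 lower of 19 (median 0.03), and interferon gamma induced genes 2 higher and 4 lower of 17 (median -0.11), against a median of -0.06 for all genes tested. The regulators gave 2 higher and 2 lower of 13 (median 0.15), and the near relatives 1 higher and 1 lower of 3 (median -0.49). No gene of any list passed between genotypes in either cell type at either day.

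The genes most like each of the 6 were found by Pearson's r of log2(UPM + 1), which is a description over points that share libraries. Over the 29 clusters, Nos2 was most like F7 (0.91), Cacna1d (0.91) and Msr1 (0.90), and Slc7a2 was most like Mcub (0.93), F7 (0.92) and Mmp12 (0.91). Arg1 was most like Gpnmb (0.84), Nos2 (0.83) and Trem2 (0.82), and Retnla like Fcna (0.86), C1qa (0.85) and C1qb (0.85). Chil3 was most like Hp (0.87), Klra2 (0.85) and Thbs1 (0.84), and Ass1 like Fam104a (0.84), Psma5 (0.81) and Psmb8 (0.81).

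Over the macrophages of the 16 grafts, where the day dominates, the order was another. Arg1 was most like Ndrg1 (0.93), Itgb7 (0.91) and Bnip3 (0.91), while Nos2 was most like Fth1 (0.96), Clec4e (0.94) and B3gnt5 (0.93). Ass1 was most like Psme2 (0.98), Il2rg (0.97) and Cstb (0.97), and Slc7a2 like Cox17 (0.96), Tcf7l2 (0.94) and Tgm2 (0.94). Chil3 was most like Taf10 (0.88), H3f3a (0.86) and Ngdn (0.86), and Retnla like Syne2, Mras and Ahcyl2 (0.94 each). Among the 6 genes, Nos2 and Ass1 (0.88), Ass1 and Slc7a2 (0.87) and Nos2 and Slc7a2 (0.78) went together over these grafts, and Retnla went against Ass1 (-0.84), Nos2 (-0.80) and Slc7a2 (-0.77). Arg1 was less tightly placed, at 0.56 with Nos2 and -0.52 with Retnla.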

How the data were processed

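Raw UMI counts per gene and cell were deposited by the authors as whole numbers with no normalization, with a cluster, cell type and hashtag for each cell. The submitters' processing notes name Cell Ranger and mm10, and the version, hashtag assignment and cell filter are not given in the sources used here. No cell lay under 1001 UMIs or above 9.74% mitochondrial UMIs, and no cell was removed here. Of 22399 distinct barcodes, 42 occurred in more than 1 library and were kept apart by library. Rnls itself was not analysed here.

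The rule names the 6 genes and uses no value, but the genes and the lists were chosen with earlier results of these data known. Counts were summed per graft and cell type for grafts with at least 10 cells, and tested with edgeR 4.0.16 (TMM, filterByExpr, glmQLFit, glmQLFTest) in R 4.3.3, with the 4 combinations of genotype and day in a single fit and Benjamini-Hochberg adjustment over all genes tested (9331 in macrophages, 8092 in monocytes). All 6 genes passed the filter in both types. Each SE is the size of the log2 fold change divided by the square root of the F statistic of its test. P-values cover the spread between grafts of a library. Grafts of both genotypes shared recipients, but the labels do not say which grafts came from the same mouse. The fit therefore held no block for the recipient, and its genotype p-values treat the grafts as independent. Named genes were the 6 genes, at most 3 per list with the smallest p, and the 3 most alike per gene, among genes with at least 50 UPM in a cluster or passing the filter. Leading genes of clusters were added as labels. Of the 5 lists, 23 of 24 alternative activation genes were in the table, and the other lists were complete.

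Alternatives were DESeq2 1.42.0, RLE factors in place of TMM, no filter on low counts, and no minimum or a minimum of 50 cells per graft. Others were a block for the hashtag number, single-day fits, leaving out cells with the highest doublet scores and leaving out each graft. For levels they were a thinning to 1000 UMIs or a fixed cluster mix. Scrublet (scanpy 1.11.5) called 2 cells by its own threshold, which was void, so the top 6% per library (1346 cells) were left out instead. On counts simulated with log2 changes of 1.5, the fit recovered 177 of 198 changed genes (89.4%) of 9188 tested for macrophage genotype at day 10 and 191 of 193 (99.0%) of 9151 for macrophage days. For monocytes it recovered 174 of 189 (92.1%) of 7867 for genotype at day 10 and 153 of 189 (81.0%) of 7868 for days. False calls numbered 12, 12, 11 and 9 in the same order. The changed genes were drawn at random from the genes past the filter, so these shares do not give the power for any of the 6 genes. Arg1 in macrophages, fitted at 1.50 (SE 0.90) between genotypes at day 10, did not pass. Python 3.11.15, NumPy 2.4.6 and pandas 2.3.3 were used.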

Additional observations from a re-analysis of the deposited data

Results flagged for a closer look

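Each group of 4 grafts was searched for a graft whose gap to its nearest neighbor exceeded the 95% critical value of Dixon's ratio. Of 66 groups, 7 held such a graft, and chance alone gives about 1 in 20. Arg1 in macrophages was 275.9 UPM in WT day 17 graft 3, where the next graft had 39.7 UPM. Arg1 in monocytes was 67.9 UPM in Rnls mut day 10 graft 3, where the next graft had 11.0 UPM. Slc7a2 in macrophages was 110.7 UPM in Rnls mut day 10 graft 2, with its nearest neighbor at 186.1 UPM. The same gene in macrophages was 70.5 UPM in WT day 10 graft 4, with its nearest neighbor at 132.7 UPM. In monocytes, Slc7a2 was 108.6 UPM in WT day 10 graft 3, where the next graft had 58.2 UPM. Cluster 12 made up 10.7% of the macrophages of Rnls mut day 10 graft 3, where the next graft had 1.10%. Cluster 13 made up 12.1% of the macrophages of WT day 17 graft 2, where the next graft had 1.02%.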

How the results depend on the processing

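The macrophage changes of Nos2, Ass1, Slc7a2, Chil3 and Retnla between days passed in all 23 alternatives run, and those of Ass1 and Slc7a2 in monocytes in all 21. These alternatives are not independent. In macrophages, 16 of them left out a single graft each. The fits with no minimum and with a minimum of 50 cells repeated the main macrophage fit, since each graft held at least 107 macrophages. Genotype calls were few and moved with the method, and the cause was not tested. With DESeq2, the genotype counts were 16 genes at day 10, 6 at day 17 and 43 for the difference between days in macrophages, and 3 at day 10 and 7 for the difference between days in monocytes. With no filter on low counts they were 12 at day 10 and 9 for the difference in macrophages, and 19, 20 and 9 for day 10, day 17 and the difference in monocytes. Each day fitted alone gave 1 gene in macrophages and 2 in monocytes at day 10, and at least 50 cells per graft gave 2 in monocytes, where no other comparison could be fitted.

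The labels do not say whether grafts with the same hashtag number came from the same mouse. Correlations of such grafts ran from -0.24 to 0.34, which cannot decide it, since grafts of the same mouse need not deviate together. With the hashtag number as a block, macrophage calls were 1 at day 10 and 5 for the difference between days, and Arg1 at day 17 turned to 0.21.

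Leaving out each graft in turn gave 1 to 4 macrophage calls at day 10, 0 at day 17 and 1 to 9 for the difference between days. In monocytes it gave 0 to 1 at day 10, 0 to 3 at day 17 and 446 (without WT day 17 graft 1) to 1967 (without WT day 17 graft 3) between days. The sign changed in some of these fits for macrophage Arg1 (-0.71 to 2.28), Nos2 (-1.41 to 0.0699), Slc7a2 (-0.35 to 0.28) and Retnla (-0.65 to 0.28) at day 17, Retnla at day 10 (-0.92 to 0.0065) and the Arg1 difference between days (-2.43 to 0.79). In monocytes between days it changed for Nos2 (-4.16 to 0.32) and Chil3 (-0.73 to 0.15). DESeq2 gave 0.043 for that Nos2 value, and leaving out the highest doublet scores gave 0.11 for macrophage Slc7a2 at day 17. The Arg1 level in cluster 12 moved from 381 to 160 UPM without WT day 17 graft 3. Arg1 between days passed in macrophages without WT day 17 graft 3 (-1.61), and in monocytes with no filter (1.45) or without Rnls mut day 10 graft 3 (2.32). Monocyte Arg1 at day 10 (2.30) and monocyte Retnla between days (1.03, adjusted p = 0.0433) passed with no filter, and monocyte Nos2 between days without WT day 17 graft 3 (-4.16).

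Depth limits monocytes at day 17, where grafts held few UMIs of each gene, and Chil3 in macrophages.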
